A study of Mus musculus with 12 samples.

Results

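The Fc gamma receptor genes described here are Fcgr1, Fcgr2b, Fcgr3, Fcgr4, Fcer1g and Fcgrt, which encode the mouse receptors for IgG antibodies, the signalling chain that several of them share and the neonatal IgG receptor. They were chosen by name, matched through their Ensembl identifiers, and make up 6 of the 54232 gene identifiers in each count file and 6 of the 18618 genes with enough counts to test. Messenger RNA was sequenced from 12 dorsal wounds of male Lepr (db/db) mice of strain C57BLKS/J. All groups carried this leptin receptor mutation, a model of obesity and type 2 diabetes that is present in every cell of the animal. The labels give an age of 12.5 weeks for each group. Full-thickness wounds of 6 mm were made with a punch and sampled on day 10. Wounds were covered at once with Tegaderm film alone (TD, 5 libraries), with a patch made to impose about 30% strain (Strain, 4 libraries) or with a patch that imposed none (No Strain, 3 libraries). The labels do not say whether the libraries of a group came from separate mice, so p-values measure the spread between these samples.

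Total counts ran from 20354677 to 25059371 per library, and the lowest count of any of the 6 genes was 133, for Fcgr4 in TD replicate 1. Skin was recognised by its defining genes in every library: 10 keratinocyte markers summed to between 9020 and 24115 CPM (counts scaled to a common library total with TMM factors) and 8 fibroblast markers to between 42622 and 74063 CPM. Skeletal muscle RNA was also present, with 12 markers summing to 6491 to 15882 CPM in TD, 4329 to 9460 in No Strain and 2981 to 5743 in Strain. Sample titles carry numbers of 1 to 6 for TD wounds and 7 to 15 for patch wounds, so any order they record cannot be told apart from the treatment.

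Fc gamma receptors let macrophages, monocytes, neutrophils, mast cells and natural killer (NK) cells respond to antibody bound to a target. The activating receptors Fcgr1, Fcgr3 and Fcgr4 lack a signalling tail of their own and act through the immunoreceptor tyrosine-based activation motif (ITAM) of the FcR gamma chain, the product of Fcer1g, whereas Fcgr2b carries an inhibitory motif in its own tail. Fcgrt encodes the heavy chain of the neonatal receptor, which works inside cells, pairs with beta-2 microglobulin and returns IgG and albumin to the circulation. In a wound these receptors sit on the phagocytes that clear debris and antibody-coated material.

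Fcgr2b, Fcgr3, Fcgr4 and Fcer1g lie near each other on chromosome 1 of GRCm38, while Fcgr1 lies on chromosome 3 and Fcgrt on chromosome 7. Sequences upstream of the 3 genes that rose under both patches, and of Fcgr3, are shown, and those of Fcgr2b and Fcgrt are not. Each sequence shown is the last 120 bases before the transcription start in RefSeq (GRCm38.p6), 5′ to 3′ on the gene's strand. For Fcgr3 that start lies well inside the span given for the gene below, which comes from another annotation. RefSeq also lists another Fcgr3 start close by. Capitals mark the core of the site read by the myeloid factor PU.1 (GAGGAA, or TTCCTC on the other strand) and the gamma-activated site read by STAT factors (TTCNNNGAA).
Fcgr1, chr3:96293970-96294089, minus strand: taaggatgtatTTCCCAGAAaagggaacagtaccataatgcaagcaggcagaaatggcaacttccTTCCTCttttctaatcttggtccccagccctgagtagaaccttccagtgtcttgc
Fcgr4, chr1:171018806-171018925, plus strand: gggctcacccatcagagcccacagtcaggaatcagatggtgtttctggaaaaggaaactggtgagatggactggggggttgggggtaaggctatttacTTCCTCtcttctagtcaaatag
Fcgr3, chr1:171059404-171059523, minus strand: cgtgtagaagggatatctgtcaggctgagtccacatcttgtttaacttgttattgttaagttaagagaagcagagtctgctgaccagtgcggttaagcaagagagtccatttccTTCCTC
Fcer1g, chr1:171234350-171234469, minus strand: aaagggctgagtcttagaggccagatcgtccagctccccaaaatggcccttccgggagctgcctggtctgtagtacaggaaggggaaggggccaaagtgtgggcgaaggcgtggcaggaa
Over the 250 bases upstream, on both strands, the PU.1 core occurred in Fcgr1, Fcgr3 and Fcgr4, or 3 of the 6 genes. The same letters occurred in 23.3% of 32851 RefSeq mouse promoters of that length. The gamma-activated site occurred in Fcgr1 alone, 109 bases before its start, against 7.02% of promoters, and 1.62% of promoters held both motifs. The windows of Fcer1g, Fcgr2b and Fcgrt held neither string of letters. These matches describe the sequence only.

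Both patch groups had more mRNA of Fcgr4, Fcgr1 and Fcer1g than TD, by 5.89-fold, 3.16-fold and 2.14-fold for No Strain and by 5.32-fold, 2.99-fold and 1.80-fold for Strain. These 3 of the 6 genes passed the threshold of adjusted p 0.05 in each comparison (edgeR quasi-likelihood test, adjusted over all genes tested), all 3 upwards. For No Strain against TD, 17.8% of all genes tested passed, 9.35% being higher and 8.4% lower. For Strain against TD, 12.6% passed, 6.2% being higher and 6.41% lower. At an unadjusted p under 0.05 stood 6 of the 6 genes for No Strain, against 33.5% of all genes, and 4 for Strain, against 29.5%. Fcgr2b, Fcgr3 and Fcgrt did not pass in either comparison. Between the patches 0 of 6 genes passed. Both comparisons use the same TD libraries, so their likeness is in part built in. In bulk tissue, fewer cells of a type and less RNA per cell cannot be told apart.

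**Figure D1:**
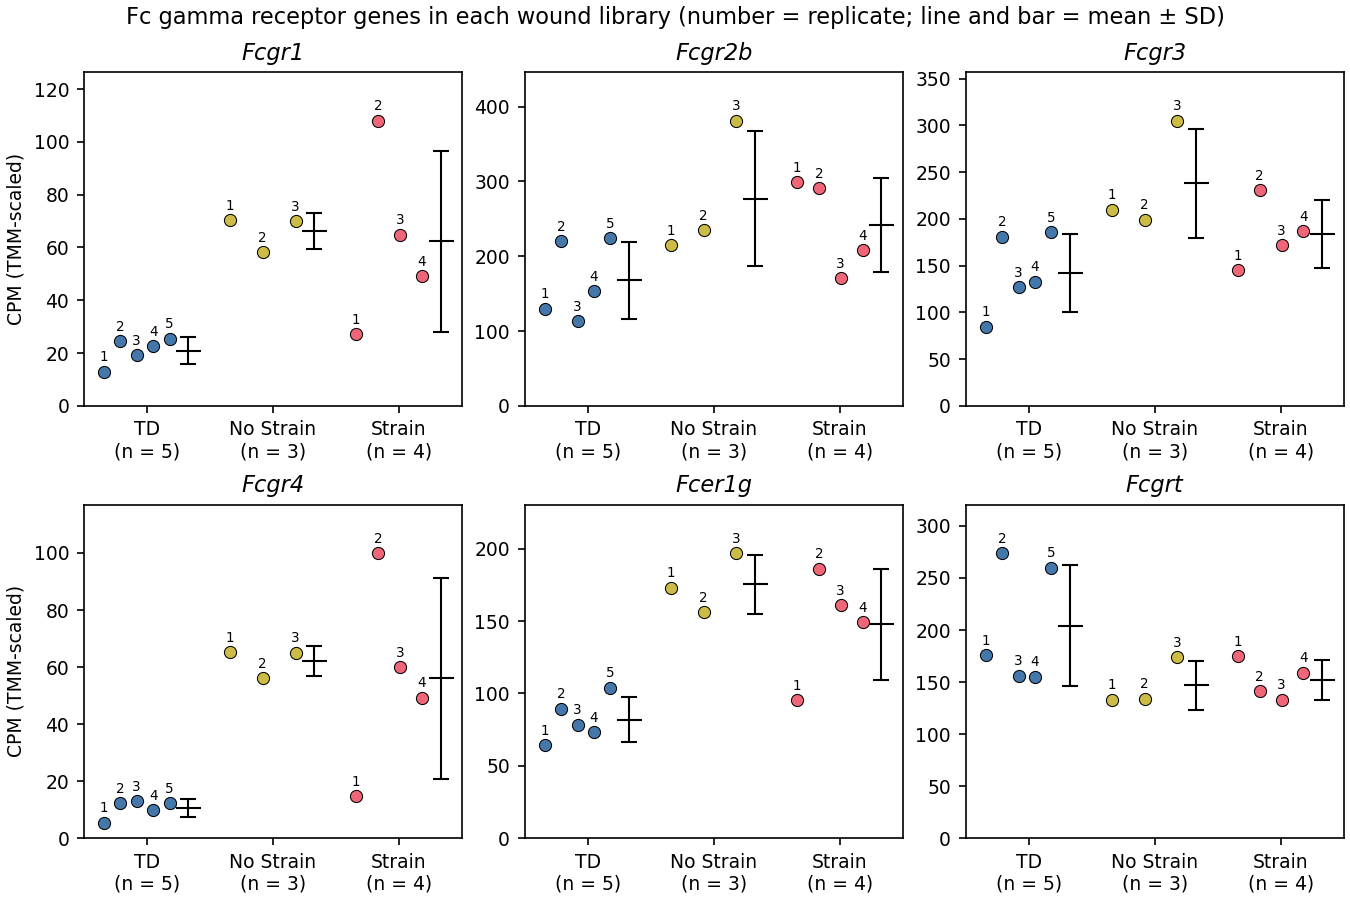
Each panel plots 1 gene, with TMM-scaled CPM on a linear axis from 0 and every library as a point numbered by replicate; the line and bar beside each group give its mean and SD (TD n = 5, No Strain n = 3, Strain n = 4). For Fcgr4 all TD points lie at or under 13.0 CPM and all patch points at or over 14.8 CPM, with Strain replicate 1 nearest to TD, while the groups overlap for Fcgr2b and Fcgrt.

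Fcgr4 (ENSMUSG00000059089, chr1:171018920-171029761), an activating receptor of monocytes, macrophages and neutrophils, had the largest fold change of the 6 genes in both comparisons with TD. Its level was 5.47, 12.2, 13.0, 9.77 and 12.3 CPM in TD replicates 1 to 5. It was 65.2, 56.1 and 65.1 CPM in No Strain replicates 1 to 3 and 14.8, 100, 59.9 and 49.3 CPM in Strain replicates 1 to 4. Every patch library was above every TD library, although Strain replicate 1 exceeded the highest TD library only slightly. Group means were 10.6 ± 3.09 CPM (SD, n = 5) in TD, 62.1 ± 5.20 (SD, n = 3) in No Strain and 56.1 ± 35.2 (SD, n = 4) in Strain. The log2 fold change against TD was 2.56 (standard error 0.447) for No Strain (edgeR adjusted p = 0.00511) and 2.41 (standard error 0.425) for Strain (edgeR adjusted p = 0.0089). Leaving out each of the 12 libraries in turn kept both calls, with log2 fold changes of 2.39 to 2.64 for No Strain and 1.97 to 2.73 for Strain.

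Fcgr1 (ENSMUSG00000015947, chr3:96282909-96293969), the high-affinity receptor that can hold single IgG molecules, varied over the libraries much as Fcgr4 did. Its level was 13.0, 24.4, 19.2, 22.6 and 25.4 CPM in TD. It was 70.3, 58.2 and 69.9 CPM in No Strain and 27.1, 108, 64.9 and 49.2 CPM in Strain. The patch groups did not overlap with TD, and again Strain replicate 1 was the lowest and Strain replicate 2 the highest patch library. Means were 20.9 ± 5.04 CPM (SD, n = 5) in TD, 66.1 ± 6.87 (SD, n = 3) in No Strain and 62.4 ± 34.3 (SD, n = 4) in Strain. The log2 fold change was 1.66 (standard error 0.345) for No Strain against TD (edgeR adjusted p = 0.00999) and 1.58 (standard error 0.325) for Strain against TD (edgeR adjusted p = 0.014). Fcgr4 and Fcgr1 were the only members whose libraries did not overlap between Strain and TD, where 14.6% of all genes did not overlap.

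Fcgr3 (ENSMUSG00000059498, chr1:171051174-171064935), the low-affinity activating receptor that is found on most myeloid cells and is the main Fc gamma receptor of NK cells, differed less. It had 84.8, 181, 127, 133 and 186 CPM in TD. It had 210, 199 and 305 CPM in No Strain and 145, 231, 172 and 187 CPM in Strain. All No Strain libraries were above all TD libraries, whereas Strain and TD overlapped. Means were 142 ± 42.0 CPM (SD, n = 5) in TD, 238 ± 58.2 (SD, n = 3) in No Strain and 184 ± 35.9 (SD, n = 4) in Strain. The log2 fold change of 0.74 for No Strain against TD did not pass with edgeR (adjusted p = 0.0556, 95% interval 0.21 to 1.28). It passed with DESeq2 (adjusted p = 0.0223) and without TD replicate 5 (edgeR adjusted p = 0.0414). With the mean of the macrophage markers as a covariate it was smaller, at 0.41, and passed (edgeR adjusted p = 0.0253). Under the other alternatives it did not pass. It was 0.52 without No Strain replicate 3 (edgeR adjusted p = 0.233) and 0.20 with the neutrophil markers as a covariate (edgeR adjusted p = 0.968). For Strain against TD the log2 fold change was 0.37 (edgeR adjusted p = 0.306, 95% interval -0.13 to 0.87).

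Fcgr2b (ENSMUSG00000026656, chr1:170958617-170976547), the inhibitory receptor of B cells and myeloid cells, overlapped between all groups. It had 130, 220, 113, 153 and 224 CPM in TD. It had 215, 235 and 381 CPM in No Strain and 299, 291, 171 and 208 CPM in Strain. No Strain replicate 3 was the highest of all, and the other No Strain libraries lay close to TD replicates 2 and 5. Strain replicate 1, lowest of the patch libraries for Fcgr1 and Fcgr4, was the highest Strain library for Fcgr2b. The log2 fold change was 0.72 for No Strain against TD (edgeR adjusted p = 0.0918, 95% interval 0.12 to 1.33) and 0.53 for Strain against TD (edgeR adjusted p = 0.195, 95% interval -0.03 to 1.09). The sign turned, to -0.66 and -0.35, when the mean of the neutrophil markers was a covariate, and to -0.084 for Strain with the skeletal muscle markers.

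Fcgr2b and Fcgr3 arose from related genes, and their coding sequences share an identical stretch of 129 bases, 5′ to 3′ on the strand of both genes. It is shown because a read that falls within it could belong to either gene.
Fcgr2b and Fcgr3 shared run: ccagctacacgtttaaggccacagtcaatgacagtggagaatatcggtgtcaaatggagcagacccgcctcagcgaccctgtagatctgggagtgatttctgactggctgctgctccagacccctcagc
The run spans the junction of exons 3 and 4 in both genes, at chr1:170967980-170968081 and chr1:170966674-170966700 of Fcgr2b, which has 8 exons in the transcript used, and at chr1:171057691-171057792 and chr1:171054167-171054193 of Fcgr3, which has 5 (GRCm38, GENCODE M21). Of the 50-base windows in Fcgr3 transcripts, 9.58% also occurred in Fcgr2b. Of those in Fcgr2b, 2.92% occurred in Fcgr3 and 6.95% in any other gene, Fcgr3 included. Fcgr1, Fcgr4, Fcer1g and Fcgrt shared 0 such windows with any other gene. How the authors' counting treated reads that match several genes is not given in the sources used here. The split between Fcgr2b and Fcgr3, and the level of Fcgr2b, are uncertain to that extent. Fcgr2b also shares 155 exon bases with the gene Gm38204 on the other strand, which had 0 to 6 counts per library.

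Fcer1g (ENSMUSG00000058715, chr1:171229572-171234365), whose product is the signalling chain the activating receptors need to reach the cell surface, rose less steeply than Fcgr4 and Fcgr1. Its level was 64.3, 89.3, 78.4, 73.1 and 104 CPM in TD. It was 173, 156 and 197 CPM in No Strain and 95.1, 186, 161 and 149 CPM in Strain. All No Strain libraries were above TD, while Strain replicate 1 lay below TD replicate 5. Means were 81.9 ± 15.5 CPM (SD, n = 5) in TD, 175 ± 20.5 (SD, n = 3) in No Strain and 148 ± 38.2 (SD, n = 4) in Strain. The log2 fold change was 1.10 (standard error 0.197) for No Strain (edgeR adjusted p = 0.00564) and 0.85 (standard error 0.184) for Strain (edgeR adjusted p = 0.0163). The Strain call was lost without Strain replicate 2, where the log2 fold change was 0.71 (edgeR adjusted p = 0.0596). For No Strain against TD, 4 of the 6 genes, namely Fcgr1, Fcgr3, Fcgr4 and Fcer1g, did not overlap between the groups, against 26.7% of all genes.

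Fcgrt (ENSMUSG00000003420, chr7:45092990-45103851) was the only one of the 6 genes with a lower mean under the patches, and it did not pass the threshold. It had 176, 274, 156, 155 and 260 CPM in TD. It had 133, 134 and 174 CPM in No Strain and 175, 141, 133 and 159 CPM in Strain. TD replicates 2 and 5 stood above the other 10 libraries, and the other 3 TD libraries overlapped with both patch groups. The log2 fold change was -0.48 for No Strain (edgeR adjusted p = 0.134, 95% interval -0.93 to -0.02) and -0.43 for Strain (edgeR adjusted p = 0.157, 95% interval -0.84 to -0.01). With the macrophage markers as a covariate, the No Strain difference was -0.67 and passed (edgeR adjusted p = 0.0344). Under every other alternative the No Strain difference did not pass.

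**Figure D2:**
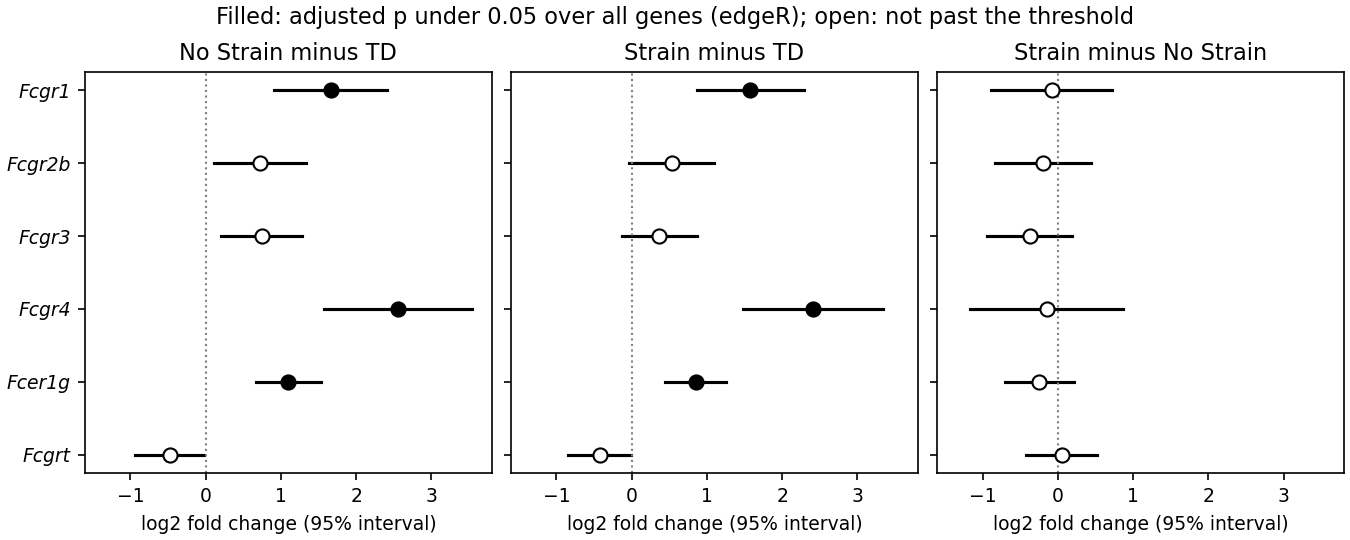
Each panel is 1 comparison, with the log2 fold change of each gene as a point and its 95% interval as a line on an axis in log2 units; filled points passed an adjusted p of 0.05 over all genes tested (edgeR). Fcgr4, Fcgr1 and Fcer1g are filled in both comparisons with TD, and all 6 intervals of Strain minus No Strain include 0.

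The comparison of the patches with each other addresses the imposed strain itself. None of the 6 genes passed in the edgeR test, 0 of them had an unadjusted p under 0.05, and the groups overlapped for all 6. Over all genes edgeR called 0%, with 1045 genes (5.61%) at an unadjusted p under 0.05 and 5.62% without overlap. DESeq2 called 33 genes, 0 of them members. The log2 difference of Strain minus No Strain was -0.15 for Fcgr4 (95% interval -1.16 to 0.87), -0.08 for Fcgr1 (95% interval -0.88 to 0.71) and -0.25 for Fcer1g (95% interval -0.71 to 0.21). It was -0.38 for Fcgr3 (95% interval -0.94 to 0.19), -0.19 for Fcgr2b (95% interval -0.83 to 0.45) and 0.05 for Fcgrt (95% interval -0.42 to 0.52). The interval for Fcgr4 is the widest, with Strain libraries running from 14.8 to 100 CPM, and intervals that include 0 do not show that the patches act alike.

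Levels of different genes were compared per length, as RPKM (CPM per kilobase of annotated exon). In TD the order of mean levels was Fcgrt at 97.2 ± 27.7 RPKM, Fcer1g at 93.7 ± 17.7, Fcgr3 at 81.9 ± 24.2, Fcgr2b at 29.0 ± 8.82, Fcgr4 at 8.40 ± 2.46 and Fcgr1 at 8.08 ± 1.95 (SD, n = 5). The first 3 overlapped in their spread, as did Fcgr4 and Fcgr1. In No Strain the order was Fcer1g at 200 ± 23.4 RPKM, Fcgr3 at 137 ± 33.5, Fcgrt at 69.8 ± 11.1, Fcgr4 at 49.5 ± 4.14, Fcgr2b at 47.9 ± 15.7 and Fcgr1 at 25.5 ± 2.65 (SD, n = 3). In Strain it was Fcer1g at 169 ± 43.7 RPKM, Fcgr3 at 106 ± 20.7, Fcgrt at 72.3 ± 8.93, Fcgr4 at 44.7 ± 28.1, Fcgr2b at 41.9 ± 10.9 and Fcgr1 at 24.1 ± 13.3 (SD, n = 4). The mean level of Fcgr4 was thus near that of Fcgr2b in both patch groups and well below it in TD. By library, the ratio of Fcgr4 to Fcgr2b RPKM was 0.194 to 0.531 in TD and 0.787 to 1.4 in No Strain. In Strain replicate 1 it was 0.228, within the range of TD, and in Strain replicates 2 to 4 it was 1.59, 1.61 and 1.09. The annotated exons of Fcgr2b, 5790 bases in all, are long, which lowers its RPKM if part of them is not transcribed here.

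The make-up of the 4 IgG receptor transcripts was then set out by library. Fcgr4 made up 5.40%, 6.02%, 9.41%, 6.52% and 5.91% of their summed RPKM in TD replicates 1 to 5. It made up 21.9%, 20.1% and 16.2% in No Strain and 7.49%, 26.2%, 23.7% and 19.4% in Strain. No Strain lay above TD throughout, whereas Strain replicate 1 lay within the range of TD. The share of Fcgr3, the largest by RPKM in every library, averaged 64.0% ± 2.10 (SD, n = 5) under TD, 52.5% ± 2.06 (SD, n = 3) in No Strain and 49.8% ± 4.55 (SD, n = 4) in Strain. Its lowest TD share of 60.5% was above the highest patch share of 54.8%. The rank of Fcgr3 above Fcgr2b rests on the exon lengths used. Without that scaling, mean CPM was higher for Fcgr2b than for Fcgr3 in TD (168 and 142), No Strain (277 and 238) and Strain (242 and 184). Fcgr1 went from 6.40% ± 0.609 in TD to 10.0% ± 1.51 in No Strain and 10.6% ± 3.17 in Strain, and Fcgr2b had 22.9% ± 3.63, 18.2% ± 2.46 and 20.4% ± 8.35 in the same order.

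**Figure D3:**
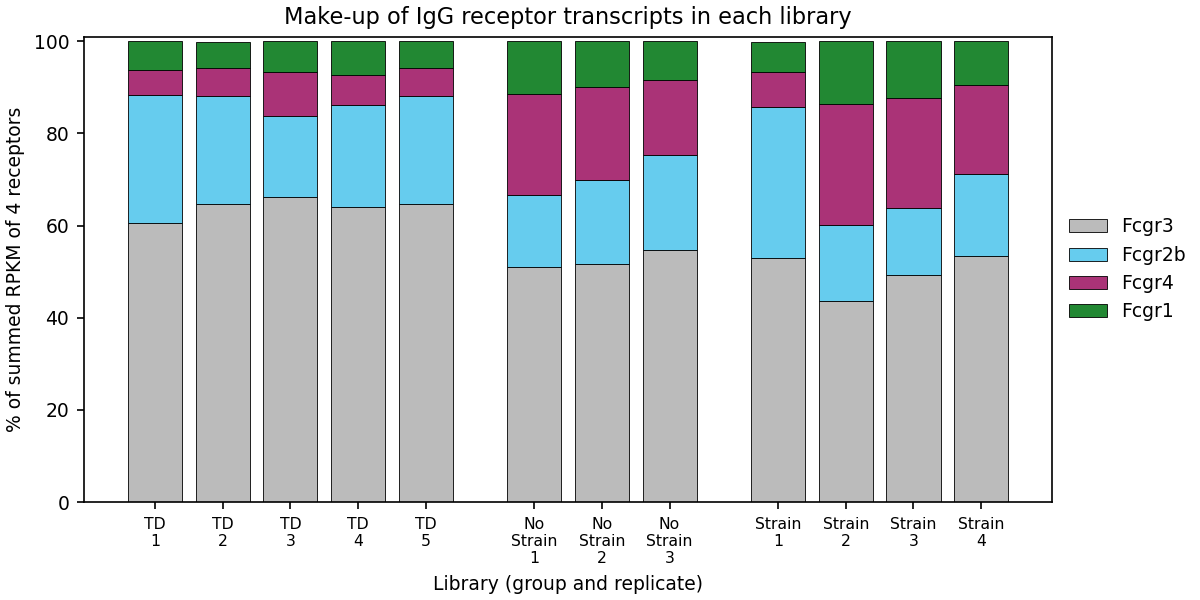
Each bar is 1 library and splits the summed RPKM of Fcgr3, Fcgr2b, Fcgr4 and Fcgr1 into percent, on an axis from 0. The Fcgr4 segment is 5.40% to 9.41% in TD, 16.2% to 21.9% in No Strain and 7.49% to 26.2% in Strain, where replicate 1 resembles TD and has the largest Fcgr2b segment (32.8%).

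The balance of activating to inhibitory receptor mRNA overlapped between the groups. Summed Fcgr1, Fcgr3 and Fcgr4 RPKM divided by Fcgr2b RPKM gave TD a mean of 3.46 ± 0.748 (SD, n = 5). The mean was 4.58 ± 0.769 (SD, n = 3) for No Strain and 4.39 ± 1.63 (SD, n = 4) for Strain, and the highest TD value of 4.65 lay above the lowest of each patch group. Strain replicate 1 had the lowest ratio of all libraries, 2.05, and Strain replicate 3 the highest, 5.81. The size of these ratios depends on the exon length taken for Fcgr2b and on how reads shared with Fcgr3 were counted. Fcer1g RPKM divided by the summed RPKM of the 3 receptors it serves was 0.984 ± 0.167 in TD, 0.952 ± 0.0581 in No Strain and 0.990 ± 0.105 in Strain. Group means of this ratio differed by less than the spread between TD replicates.

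Ratios to Ptprc, the gene of the pan-leukocyte antigen CD45, set the receptors against the leukocyte RNA in the same library. Fcgr4 per Ptprc (CPM over CPM) averaged 0.0961 ± 0.0130 (SD, n = 5) under TD, 0.324 ± 0.0509 (SD, n = 3) in No Strain and 0.302 ± 0.117 (SD, n = 4) in Strain. The highest TD ratio, 0.115, was below the lowest Strain ratio, 0.132, and the lowest No Strain ratio, 0.291. Fcgr1 per Ptprc was 0.193 ± 0.0139, 0.345 ± 0.0593 and 0.345 ± 0.0808 in the same order, again without overlap between TD and the patches. Fcgr3 per Ptprc, at 1.30 ± 0.181, 1.22 ± 0.179 and 1.11 ± 0.180, and Fcgr2b per Ptprc, at 1.58 ± 0.419, 1.41 ± 0.290 and 1.55 ± 0.751, overlapped throughout. Fcer1g per Ptprc overlapped too, at 0.774 ± 0.145 in TD, 0.908 ± 0.102 in No Strain and 0.881 ± 0.132 in Strain. Fcgrt per Ptprc was 1.95 ± 0.607 in TD, 0.756 ± 0.0515 in No Strain and 0.989 ± 0.428 in Strain, where Strain overlapped with TD. Against Csf1r, the macrophage growth factor receptor, Fcgr4 had a ratio of 0.0297 ± 0.00689 in TD, 0.151 ± 0.0177 in No Strain and 0.138 ± 0.0752 in Strain, where Strain replicate 1 at 0.0402 overlapped with TD. Fcgr1 per Csf1r ran from 0.0511 to 0.0672 in TD, 0.143 to 0.182 in No Strain and 0.0736 to 0.241 in Strain. For Fcer1g the ranges were 0.187 to 0.334, 0.403 to 0.447 and 0.258 to 0.417. For Fcgr3 they were 0.374 to 0.44, 0.534 to 0.624 and 0.393 to 0.524. For both, No Strain lay above TD and Strain overlapped with TD. Fcgrt per Csf1r was lower in No Strain than in TD throughout, and Fcgr2b overlapped between all groups.

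Signals from the activating receptors pass through Src family kinases to Syk and on to adaptors, exchange factors and lipid enzymes. Of 18 genes of this pathway, all tested, 6 were called higher and 0 lower in Strain against TD, with a median log2 fold change of 0.37, and 5 higher and 0 lower in No Strain against TD, with a median of 0.47. The median over all genes was 0.02 and 0.00. The Src family kinase gene Fgr, at 23.6 ± 5.03 CPM (SD, n = 5) under TD, rose to 63.3 ± 22.1 (SD, n = 3) in No Strain and 52.8 ± 17.6 (SD, n = 4) in Strain, with log2 fold changes of 1.42 (edgeR adjusted p = 0.0065) and 1.16 (adjusted p = 0.016). Lyn, another kinase of that family, rose by 0.92 in No Strain (edgeR adjusted p = 0.0103) and 0.69 in Strain (adjusted p = 0.031) on the log2 scale. The exchange factor gene Vav1 rose by 1.12 (edgeR adjusted p = 0.00664) and 0.81 (adjusted p = 0.0247), and the adaptor gene Lcp2 by 1.04 (edgeR adjusted p = 0.0153) and 0.93 (adjusted p = 0.0244), in No Strain and Strain. Syk itself, named for its role after its values were seen, had log2 differences of 0.44 and 0.09 that did not pass.

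Of 11 genes of inhibitory signalling, such as the phosphatases that Fcgr2b and related receptors recruit, 0 were called higher and 1 lower in Strain, and 1 higher and 0 lower in No Strain, against TD. The lower one was Ptpn11, a phosphatase gene, at -0.20 on the log2 scale (edgeR adjusted p = 0.0274). The higher one was Sirpa, the receptor for the signal CD47 that restrains phagocytosis, at 0.57 (edgeR adjusted p = 0.0456). Inpp5d, the lipid phosphatase that acts below Fcgr2b, was named for its role after its values were seen, and its differences of 0.59 in No Strain and 0.36 in Strain did not pass.

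The FcR gamma chain also serves receptors that do not bind IgG. Of 12 genes listed as such partners 10 were tested. Against TD 5 were higher in Strain and 6 in No Strain, with 0 lower and median log2 fold changes of 0.85 and 1.45. These counts include Clec7a, a receptor with a signalling motif in its own tail, named after its values were seen. It rose by 1.34 in No Strain (edgeR adjusted p = 0.0127) and 0.94 in Strain (adjusted p = 0.0464) on the log2 scale. Clec4e, the receptor Mincle for microbial glycolipids and products of dead cells, stood at 15.0 ± 5.00 CPM (SD, n = 5) under TD and rose to 103 ± 46.2 (SD, n = 3) in No Strain and 85.7 ± 54.0 (SD, n = 4) in Strain, with log2 fold changes of 2.78 (edgeR adjusted p = 0.00348) and 2.52 (adjusted p = 0.00715). Its partner Clec4d rose by 1.72 (edgeR adjusted p = 0.00448) and 1.36 (adjusted p = 0.0132), and the fungal receptor gene Clec4n by 1.64 (edgeR adjusted p = 0.0061) and 1.32 (adjusted p = 0.016) on the same scale. Oscar, a collagen receptor of myeloid cells and osteoclasts, rose from 0.402 ± 0.126 CPM to 2.09 ± 0.151 in No Strain and 2.60 ± 1.10 in Strain, a low level in all groups. Fcer1a and Ms4a2, the other subunits of the IgE receptor that shares this chain, were named for their role after their values were seen and did not pass in any comparison. The named genes that rose in this list encode receptors for lipids, sugars and collagen, and the list was drawn up from receptors that do not bind IgG.

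Other adaptors with the same activation motif, and their partners, gave 4 of 8 genes higher in Strain and 2 of 8 in No Strain, with 0 lower. Tyrobp, the adaptor DAP12 of myeloid and NK cells, had 126 ± 35.9 CPM (SD, n = 5) in TD and 247 ± 53.7 (SD, n = 3) in No Strain, a log2 fold change of 0.97 (edgeR adjusted p = 0.0205), while its difference of 0.62 in Strain did not pass (adjusted p = 0.0898). Hcst, the partner adaptor DAP10, which lacks that activation motif, rose by 1.07 in No Strain (edgeR adjusted p = 0.00675) and 0.73 in Strain (adjusted p = 0.0317). The T cell receptor chain genes Cd3d (1.21, edgeR adjusted p = 0.0442) and Cd247 (0.90, adjusted p = 0.0421) passed in Strain.

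Of 13 other immunoglobulin receptor genes 11 were tested, with 1 higher in Strain and 2 in No Strain. Over all genes tested, 6.2% were called higher in Strain and 9.35% in No Strain, so these small counts do not set the list apart. Fcrlb, an intracellular Fc receptor-like gene, passed in both, at log2 1.86 (edgeR adjusted p = 0.00509) in No Strain and 1.13 (adjusted p = 0.0363) in Strain. Pigr, the epithelial carrier of IgA and IgM, passed in No Strain, from 1.04 ± 0.470 CPM in TD to 4.30 ± 0.216 (edgeR adjusted p = 0.00971).

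Transcripts of the IgG heavy chain genes were sparse in the wounds; IgG protein was not measured. Of 13 immunoglobulin genes 10 were tested, and 0 passed in Strain and 2 in No Strain, both higher. Ighg1, the constant region of an IgG subclass, had 0.411 to 1.43 CPM in TD, 0.815 to 3.95 in No Strain and 0.311 to 0.765 in Strain, so No Strain overlapped with TD (log2 fold change 1.91, edgeR adjusted p = 0.0245). Ighg2c, the IgG subclass gene whose antibody Fcgr1 and Fcgr4 bind well, had 0 to 0.162 CPM in TD, 0.172 to 3.33 in No Strain and 0 to 0.584 in Strain (No Strain against TD, edgeR adjusted p = 0.0133). Since 3 counts amount to up to 0.147 CPM, TD lay near the limit of detection and no fold is given. Reads of these similar genes may also be shared among them.

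For the partners of Fcgrt, 11 genes of IgG recycling were tested, with 0 called in Strain and 1 higher in No Strain. That gene was B2m, the light chain of the neonatal receptor and of class I histocompatibility proteins, at 1134 ± 145 CPM (SD, n = 5) in TD, 1892 ± 422 (SD, n = 3) in No Strain and 1808 ± 600 (SD, n = 4) in Strain. Its log2 fold change was 0.74 in No Strain (edgeR adjusted p = 0.0496) and 0.67 in Strain (adjusted p = 0.0636), opposite in sign to that of Fcgrt. None of 10 complement genes tied to IgG effector function passed in either comparison in the edgeR test. C3, the central complement protein, had log2 differences of 0.24 in No Strain (edgeR adjusted p = 0.768) and 0.32 in Strain (adjusted p = 0.671), and C1qb, a subunit of the IgG-binding C1q, had 0.65 (adjusted p = 0.0918) and 0.48 (adjusted p = 0.195).

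Markers of the cells that carry Fc receptors moved with these genes to different extents. Of 12 macrophage markers 0 passed in Strain and 1, Cd14, in No Strain, and their summed level was 2654 to 5744 CPM in TD, 5221 to 8065 in No Strain and 4952 to 7833 in Strain. Of 8 monocyte markers 5 were higher in each comparison, with sums of 270 to 443, 452 to 585 and 407 to 751 CPM in the same order; Ly6c2, a marker of inflammatory monocytes, rose by 2.65 (edgeR adjusted p = 0.0103) and 2.62 (adjusted p = 0.0132) on the log2 scale. Of 12 neutrophil markers 8 were higher in No Strain and 9 in Strain, with sums of 495 to 1701 CPM in TD, 2205 to 5229 in No Strain and 931 to 8757 in Strain. In Strain S100a8 averaged 1688 CPM and S100a9 2207 of a mean sum of 4269, both named after their values were seen. The mean log2 CPM of the 12 markers ran from 3.03 to 3.6 in TD, 4.88 to 6.08 in No Strain and 4.11 to 4.97 in Strain. Between the patches 0 of the 12 passed. Mmp8, the collagenase of neutrophil granules, rose from 3.92 ± 1.75 CPM in TD to 44.1 ± 24.8 in No Strain (edgeR adjusted p = 0.00111) and 17.1 ± 2.63 in Strain (adjusted p = 0.00856). Of 7 tested NK cell markers 5 were higher in No Strain and 4 in Strain, with sums of 9.69 to 15.9, 31.6 to 52.5 and 10.7 to 71.3 CPM. None of the markers in these lists was at 0 in all libraries.

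Lists of other cells of skin and wounds were counted in the same way. Of 9 dendritic cell markers 0 were called in Strain and 1 was lower in No Strain, namely Cd209a. Of 8 mast cell markers 1, the histidine decarboxylase gene Hdc, was higher in each comparison. Of 9 tested B and plasma cell markers 1, the transcription factor gene Irf4, was lower in each. Among 8 T cell markers 4 were higher in each, and among 10 endothelial markers 5 were higher and 1, Lyve1, was lower in each. Adipocyte markers were lower for 6 of 8 in Strain and 8 of 8 in No Strain, and skeletal muscle markers for 7 and 3 of 11, while 0 of 8 fibroblast markers, led in level by the collagen genes Col3a1 and Col1a1, and 0 of 10 keratinocyte markers, led by the keratin genes Krt14 and Krt1, were called.

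The members were then fitted with marker levels held as a covariate. With the mean of the macrophage markers, Fcgr4 differed from TD by 2.23 in No Strain (edgeR adjusted p = 0.0178) and 2.11 in Strain (adjusted p = 0.0247) on the log2 scale. Fcgr1 differed by 1.36 (edgeR adjusted p = 0.028) and 1.30 (adjusted p = 0.0337), and Fcer1g by 0.90 (edgeR adjusted p = 0.013) and 0.70 (adjusted p = 0.0283). All 3 genes passed in both comparisons with this covariate. With the mean of the neutrophil markers, an alternative chosen after seeing the data, Fcgr4 differed by 2.55 and 2.41 with standard errors of 1.23 and 0.866, and 0 members and 0 of all genes passed in either comparison. With the mean of the skeletal muscle markers, 0 members passed in Strain and 2 in No Strain. The differences of Fcgr4, Fcgr1 and Fcer1g in Strain were then 2.84, 1.71 and 0.89, with standard errors of 0.811, 0.636 and 0.354 (edgeR adjusted p = 0.392, 0.483 and 0.49). In No Strain that of Fcgr1 was 1.73 (standard error 0.453, edgeR adjusted p = 0.0582). These differences had larger standard errors than without the covariate. The mean of the muscle markers was 8.64 to 9.9 log2 CPM in TD, 8.04 to 8.97 in No Strain and 7.52 to 8.41 in Strain. That of the neutrophil markers was 3.03 to 3.6, 4.88 to 6.08 and 4.11 to 4.97 in the same order. Neither overlapped between TD and Strain, nor the second between TD and No Strain, so there the covariate and the group cannot be told apart.

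Genes with the most similar course over the 12 libraries were found by the root mean square difference between log2 CPM values scaled to mean 0 and SD 1, a description in which all genes share the same libraries. The nearest gene to Fcgr4 among all 18618 tested was Fcgr1, at 0.165 SD units, and Fcer1g lay at 0.216 from Fcgr4. Outside the 6 genes, Fcgr4 was nearest to Cd52 (0.196), AB124611 (0.201) and Ctss (0.230). Fcgr1 was nearest to AB124611 (0.161) and Lcp2 (0.179), and Fcer1g to Ctss (0.169), AB124611 (0.190) and Gm46224 (0.193). Fcgr3 was nearest to Synj1 (0.198), Lrrc25 (0.208) and Asah1 (0.221). Fcgr2b had no gene as near, with Ifnar1 (0.296), Pgm2 (0.318) and 0610040J01Rik (0.323) first, and it lay at 0.606 from Fcgr3. Fcgrt, nearest to Ednrb (0.320), Ap2a2 (0.344) and Stard8 (0.350), lay at 1.285 to 1.698 from the other 5 members.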

How the data were processed

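Poly(A) RNA libraries were prepared with a NEBNext Ultra kit from total RNA of RIN above 7.8, per the labels' protocols. The deposited values are raw counts for each Ensembl gene, per the file headers, with 1 file for every library. The submitters' processing notes list bcl2fastq 2.17, FastQC, cutadapt, STAR, featureCounts, DESeq2 and GRCm38. The annotation, the use of strand and the handling of reads matching several genes are not given in the sources used here. Of 54232 identifiers, 54165 matched GENCODE M21 (GRCm38), which gave symbols, positions and exon lengths.

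Genes were kept by filterByExpr (minimum count 10, minimum total 15), leaving 18618. All 12 libraries entered 1 edgeR 4.0.16 quasi-likelihood fit (R 4.3.3, robust, TMM scaling), with Benjamini-Hochberg adjustment over all genes and a threshold of 0.05. CPM and RPKM use TMM-scaled totals. The test was checked on simulated counts. Intervals are 95%, and a floor of 3 counts covers counting error only. Replicates agreed less closely than sampling noise in every pair (chi-square per degree of freedom 9.53 to 75.0), so none was a duplicate. Replicate numbers follow accession order.

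Alternatives were DESeq2 1.42.0 and its size factors, limma-voom (limma 3.58.1), no filter, a filter at a mean of 5 CPM, fits on the compared groups alone, no robust weights, library totals alone, covariates (title letter; muscle, macrophage or neutrophil markers) and leaving out each library. The neutrophil covariate was chosen after seeing the data. All 6 genes are named. From each list up to 4 called genes with the smallest p over the 3 groups are named, or, in lists with none called, the 2 with the highest level. For each of the 6 genes, the 3 genes of most similar course are also named, except 1 that is not reported here. The 6 genes and the lists were chosen with earlier results of these data known.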

Additional observations from a re-analysis of the deposited data

Results flagged for a closer look

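Of 38 sets of library values within a group of 4 or 5 that were screened for a library far from the others, including those of the 6 Fc gamma receptor genes, 2 held one, where chance gives about 1.9. In TD replicate 2 the mean of the T cell markers was 1.52 log2 CPM, with the nearest TD library at 1.84. In TD replicate 3 the mean of the fibroblast markers was 10.56 log2 CPM, with the nearest at 10.97. None of the 6 genes had such a library in TD or Strain.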

How the results depend on the processing

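Against TD, Fcgr4, Fcgr1 and Fcer1g kept their direction under every alternative run. The number of members called was 2 to 3 for Strain and 3 to 4 for No Strain when each library was left out in turn. It was 0 for Strain with the skeletal muscle covariate, 0 in both comparisons with the neutrophil covariate, and 5 for No Strain with the macrophage covariate; the cause was not tested. Over all genes, 2349 calls for Strain became 1527 with no filter, 798 with the title letter, 1 with the muscle, 1273 with the macrophage and 0 with the neutrophil covariate, and 882 to 2458 on leaving out a library, lowest without Strain replicate 2. The 3305 calls for No Strain became 2145, 802, 1868 and 0 with the same 4 covariates, and 1505 to 3415 on leaving out a library, lowest without No Strain replicate 3. With library totals alone, 38.1% of No Strain calls were higher, against 52.7%. Between the patches, 0 calls over all genes became 33 with DESeq2.

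Signs turned only in differences that had not passed. Fcgr2b against TD became -0.66 (No Strain) and -0.35 (Strain) with the neutrophil and -0.084 (Strain) with the muscle covariate. Between the patches, leaving out a library gave ranges of -0.49 to 0.17 for Fcgr1, -0.36 to 0.11 for Fcgr2b, -0.59 to 0.17 for Fcgr4 and -0.028 to 0.19 for Fcgrt. There the muscle covariate gave 0.049 for Fcgr4 and -0.19 for Fcgrt, and the neutrophil covariate 0.31 for Fcgr2b. No paired analysis was possible because the sample titles share no number between groups and replicate numbers only follow accession order. The titles also carry a letter, L or R, that all 3 groups share and whose meaning is not stated; it pairs no libraries and was used as the title letter covariate above.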
